A study of Mus musculus with 13 samples.

Results

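The 10 genes described here control how stored triglyceride is broken down in mouse brown adipose tissue. They are the lipases Pnpla2, Lipe and Mgll, the lipase coactivator Abhd5, the lipase inhibitors G0s2 and Hilpda, and the perilipins Plin1, Plin2, Plin4 and Plin5, which coat the lipid droplet. They were chosen by name for these roles, with earlier results of these data known. Each was found among the 55357 genes of the count table. All 10 also passed the filter on low counts and were part of the 11073 genes tested, and in each library they held between 0.603% and 0.828% of all counts.

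Brown adipose tissue of mice was profiled by 3′ mRNA sequencing in 13 libraries. The knockout (KO) mice, genotype Stim1/2_Adp-Cre, lacked Stim1 and Stim2 in cells that express Cre from the adiponectin promoter, which is active in fat cells throughout the body and not in brown fat alone. The control mice, genotype Stim1/2_fl/fl, carried the floxed alleles, with no Cre named, and are called wild type in the description of the series. The groups were KO cold (n = 4) and control cold (n = 4), both kept at 4 °C for 6 h, and KO RT (n = 3) and control RT (n = 2), both kept at room temperature (RT). STIM1 and STIM2 sense calcium in the endoplasmic reticulum and open calcium channels of the plasma membrane. The labels give no age or sex and the same batch for every library, and do not state whether replicate libraries are separate animals. The p-values then reflect library-to-library spread only, some of which may be technical.

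Library totals ran from 1570684 to 2016178 counts. Stim1 was at 78.8 to 108 CPM (counts over TMM-scaled library totals) in KO cold, against 114 to 134 CPM in control cold, and at 62.0 to 86.1 CPM in KO RT and 126 to 149.9 CPM in control RT. Stim2 was at 13.5 to 29.7 CPM in KO cold, against 31.1 to 54.5 CPM in control cold, and at 21.0 to 25.2 CPM in KO RT and 29.0 to 40.4 CPM in control RT. At either temperature no KO library reached the level of a control library for these genes. The tags sit at the 3′ end and may fall outside the deleted exons. The 9 adipocyte markers that are not among the 10 genes were all detected, and their summed level was 18887 to 21017 CPM in KO cold, 18238 to 19788 CPM in control cold, 21392 to 23203 CPM in KO RT and 18494 to 21300.0 CPM in control RT. These sums overlapped between genotypes in cold. At RT each KO library was above both control libraries, by as little as 21392 against 21300.0 CPM. All KO cold sums lay below all KO RT sums, while control cold and control RT overlapped. The 8 brown adipocyte markers, led by Ucp1, summed to 12936 to 13766 CPM in KO cold, against 14963 to 19157 CPM in control cold, so they did not overlap, and to 6523 to 8530 CPM in KO RT and 7515 to 8983 CPM in control RT. Skeletal muscle markers were uneven at RT, at 1810, 1251 and 204 CPM in KO RT and 2804 and 121 CPM in control RT, and lower in cold, at 61.0 to 417 CPM in KO cold and 49.5 to 309 CPM in control cold. Fibroblast and macrophage markers were highest in the library control cold 2, at 1494 and 333 CPM, and were at 518 to 846 CPM and 114 to 211 CPM in the other control cold libraries. Endothelial, smooth muscle, erythrocyte and Schwann cell markers overlapped between KO cold and control cold, and lymphocyte markers summed to at most 12.1 CPM in any library. The part of these differences in the results below was not tested. In tissue RNA, fewer cells of a type and less RNA per cell cannot be told apart.

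Triglyceride is broken down one fatty acid at a time. The lipase encoded by Pnpla2 (ATGL) removes the first fatty acid, the product of Lipe (hormone-sensitive lipase) the next, and the product of Mgll (monoacylglycerol lipase) the last. In resting fat cells perilipin 1 holds ABHD5, the coactivator of ATGL, at the droplet surface; noradrenaline released in cold raises cAMP, protein kinase A phosphorylates perilipin 1 and hormone-sensitive lipase, ABHD5 is set free and lipolysis starts. The fatty acids fuel brown fat mitochondria and activate UCP1. Perilipin 5 also binds ABHD5 and ATGL and places droplets beside mitochondria, while G0S2 and HILPDA inhibit ATGL. Much of this control acts on the proteins, so RNA levels say how much message was present and not how fast lipid was broken down.

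The promoters of the 3 genes of this set that carried the nuclear receptor motif AGGTCA (reverse complement TGACCT) within 250 bases upstream of a RefSeq start are shown, because their RNA changed in at least 1 comparison below. Lipe and Plin4, which also changed, carried no AGGTCA in their windows. Each sequence covers those 250 bases on the strand of the gene in the build GRCm38.p6 and ends next to the start. It was taken from RefSeq promoter tables that matched all 10 genes with 14 windows in total. Capitals mark AGGTCA or TGACCT and the core TGACG or CGTCA of the cAMP response element (CRE). Abhd5 lies at chr9:122351366-122351615 on the plus strand, Plin2 at chr4:86670060-86670309 on the minus strand and the first of the 2 Plin5 windows at chr17:56117549-56117798 on the minus strand.
Abhd5: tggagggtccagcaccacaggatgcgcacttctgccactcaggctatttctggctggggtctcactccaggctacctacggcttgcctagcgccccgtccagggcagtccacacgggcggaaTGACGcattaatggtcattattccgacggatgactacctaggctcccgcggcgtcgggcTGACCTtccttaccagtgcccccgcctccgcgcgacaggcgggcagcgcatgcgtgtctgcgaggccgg
Plin2: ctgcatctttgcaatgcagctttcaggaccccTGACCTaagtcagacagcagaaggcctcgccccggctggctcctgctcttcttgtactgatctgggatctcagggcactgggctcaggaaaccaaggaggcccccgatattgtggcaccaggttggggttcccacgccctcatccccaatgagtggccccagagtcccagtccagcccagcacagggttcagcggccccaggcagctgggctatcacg
Plin5: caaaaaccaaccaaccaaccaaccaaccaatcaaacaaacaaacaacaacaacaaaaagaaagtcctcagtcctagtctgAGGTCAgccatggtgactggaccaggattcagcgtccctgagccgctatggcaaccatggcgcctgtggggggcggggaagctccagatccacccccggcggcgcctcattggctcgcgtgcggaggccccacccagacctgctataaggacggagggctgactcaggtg
The motif AGGTCA began 69 bases upstream of the start in Abhd5, 218 bases in Plin2 and 170 bases in Plin5. Among all 32536 windows of this length, 14.0% held it on either strand, against 3 of the 14 windows of these 10 genes. Abhd5 also held TGACG, 128 bases upstream, as did G0s2 and Hilpda, and 17.9% of all windows held that core. The E-box CACGTG was found upstream of Lipe and Mgll and in 6.04% of all windows, and the complete CRE TGACGTCA, which contains the core TGACG, in none of the 10 genes and in 1.56% of all windows. A match is a description of the letters and not a site of binding, and no match says only that these letters are not in this window.

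In cold, 3 of the 10 genes differed between KO and control at an adjusted p under 0.05. Lipe and Plin5 were higher in KO and Abhd5 was lower. Over all genes tested, 5.93% differed in this comparison, 2.44% higher and 3.49% lower in KO. The median log2 fold change was 0.18 over the 10 genes and -0.01 over all genes tested. The cold groups of these 3 genes and of Plin1 did not overlap, which makes 4 of the 10 genes against 12.8% of all genes tested. In the same libraries the summed brown adipocyte markers given above were lower in KO cold, and their part in these calls was not tested. The other 7 genes, Pnpla2, Mgll, G0s2, Plin1, Plin2, Plin4 and Hilpda, did not pass. At RT none of the 10 passed, and neither did any gene of the table (0.0%; 3.12% of genes had an unadjusted p under 0.05, and DESeq2 called 8 genes, none of them among the 10). Mgll was the 1 gene of the 10 whose RT groups did not overlap, where 16.6% of all genes did not.

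**Figure D1:**
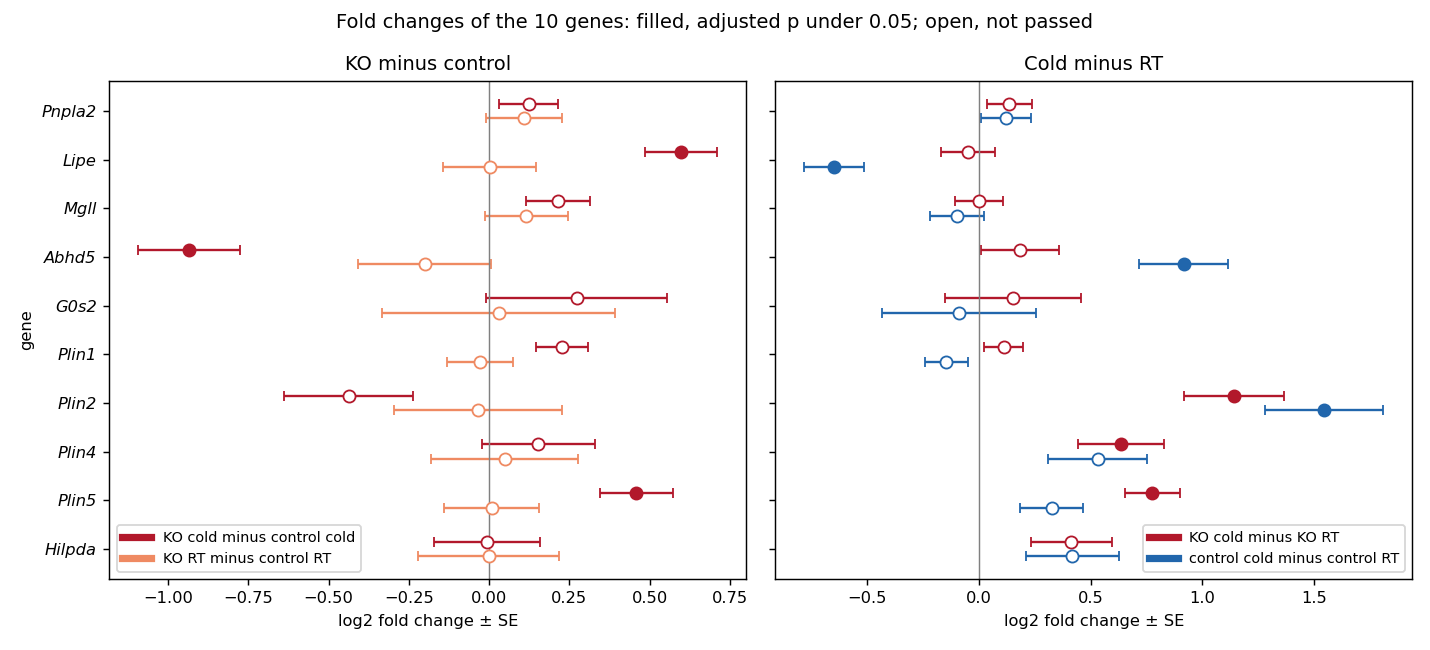
Log2 fold change of each of the 10 genes (horizontal axis) with its standard error, for KO against control and for cold against RT; filled points had an adjusted p under 0.05. Lipe and Plin5 lie to the right and Abhd5 to the left of 0 for KO cold against control cold, and no gene is called for KO RT against control RT, where each bar is wider than that for KO cold against control cold.

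Cold itself changed 3 of the 10 genes in control tissue, where 25.2% of all genes tested changed (12.7% higher, 12.6% lower), and 3 of the 10 in KO tissue, where 18.9% changed (9.43% higher, 9.45% lower). Against control RT, control cold had higher Plin2 and Abhd5 and lower Lipe. Against KO RT, KO cold had higher Plin2, Plin5 and Plin4. Cold and RT groups did not overlap for 6 of the 10 genes in control (40.4% of all genes) and for 4 of the 10 in KO (32.2% of all genes). The comparison of KO cold with control cold and the cold response of control share the control cold libraries, so a gene that is unusual in those 4 libraries enters both. The test of the difference between the cold responses of KO and control called none of the 10 genes and 0.0181% of all genes, which is 2 genes (8.25% had an unadjusted p under 0.05, and DESeq2 called 31 genes). None of the changes in one genotype alone is therefore shown to differ from the change in the other.

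**Figure D2:**
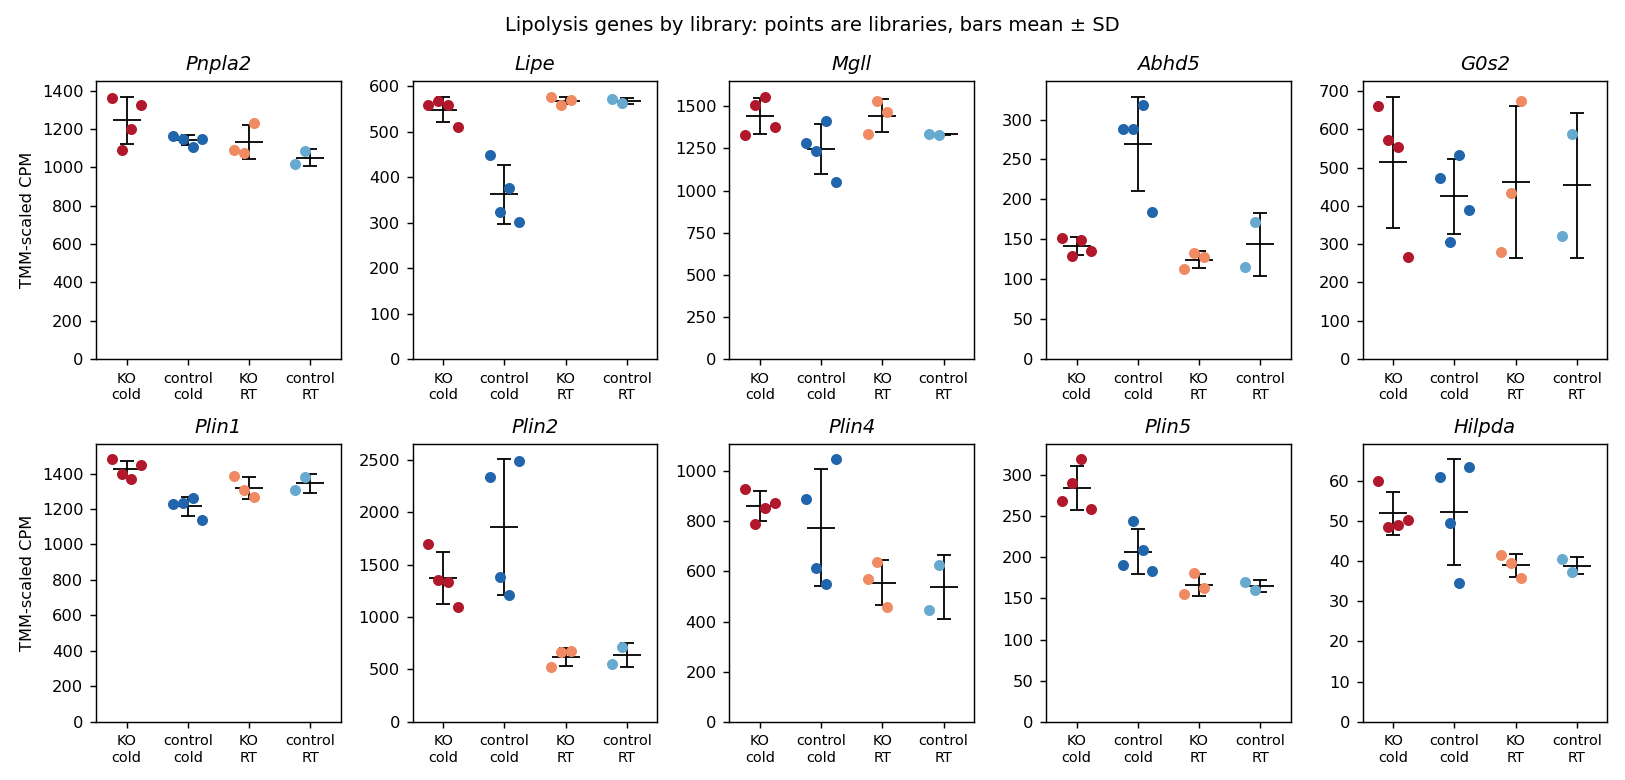
Level of each of the 10 genes in CPM on a linear axis, 1 panel per gene, with 1 point per library and the group mean and SD as bars, in the order KO cold, control cold, KO RT, control RT. The KO cold points stand above all control cold points for Lipe, Plin1 and Plin5 and below them for Abhd5, and for Plin2 all cold points stand above all RT points.

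Pnpla2 (ENSMUSG00000025509.16, chromosome 7) encodes ATGL, the enzyme that starts lipolysis. It was at 1361, 1089.8, 1201 and 1325 CPM in KO cold, against 1164, 1149.8, 1108 and 1147 CPM in control cold, and at 1091, 1072 and 1232 CPM in KO RT and 1018 and 1083 CPM in control RT. The groups overlapped between genotypes at both temperatures, and each control cold library was above each control RT library. Its largest log2 fold change was 0.14 ± 0.10 (SE, adjusted p = 0.367) for KO cold against KO RT, and it was 0.12 ± 0.09 (adjusted p = 0.496) for KO cold against control cold and 0.12 ± 0.11 (adjusted p = 0.463) for control cold against control RT. Between 1625 and 2348 counts per library lay behind these values.

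Lipe (ENSMUSG00000003123.16, chromosome 7), which encodes hormone-sensitive lipase, was at 558, 568, 559.7 and 509.6 CPM in KO cold, against 449, 323, 376 and 301 CPM in control cold. Each KO cold library was above each control cold library, and the log2 fold change was 0.60 ± 0.11 (1.51-fold, adjusted p = 0.00472, and 0.000835 to 0.0168 with any 1 library left out). Room temperature libraries had 576, 559 and 570.0 CPM in KO and 573 and 563 CPM in control, which overlapped. KO cold overlapped KO RT (-0.05 ± 0.12, adjusted p = 0.807), and the 4 control cold libraries stood below all RT libraries. Control cold fell by 0.65 ± 0.13 on the log2 scale against control RT, a level 1.57-fold lower, with an adjusted p of 0.00255, and of 0.00051 to 0.0309 with any 1 library left out. The difference between the cold responses was 0.60 ± 0.18 with an unadjusted p of 0.00451 and an adjusted p of 0.364, so it did not pass. The antisense gene 4732471J01Rik overlaps Lipe and averaged 3.14 CPM.

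Mgll (ENSMUSG00000033174.18, chromosome 6), whose product cleaves the last fatty acid from glycerol, was at 1332, 1510.3, 1557 and 1375 CPM in KO cold, against 1279.8, 1232, 1414 and 1053 CPM in control cold. It was at 1338, 1529 and 1468 CPM in KO RT and 1333 and 1332 CPM in control RT. The cold groups overlapped, with a log2 fold change of 0.21 ± 0.10 (adjusted p = 0.239). At RT each KO library was above both control libraries, by as little as 1338 against 1333 CPM (0.12 ± 0.13, adjusted p = 1.0). No comparison passed. Of 5 overlapping genes the highest was Gm44005, on the same strand, with a mean of 33.0 CPM. Of the 3 lipases, Lipe alone was called in any of the comparisons.

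Abhd5 (ENSMUSG00000032540.17, chromosome 9) encodes the protein that activates ATGL. It was at 152, 129, 149.6 and 135 CPM in KO cold, against 289, 288, 318 and 184 CPM in control cold. All 4 KO cold libraries were below the lowest control cold library, which was control cold 4. The log2 fold change was -0.93 ± 0.16, a level 1.91-fold lower in KO, with an adjusted p of 0.00211, and of 0.000188 to 0.0124 with any 1 library left out. Room temperature libraries had 112, 133 and 128 CPM in KO and 115 and 172 CPM in control. Those ranges overlapped (-0.20 ± 0.21, adjusted p = 1.0), and the 2 control RT libraries differed from each other more than the 3 KO RT libraries did.

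In control tissue Abhd5 was 1.89-fold higher in cold than at RT (0.92 ± 0.20, adjusted p = 0.00349), and no control cold library was as low as a control RT library. Without the library control RT 1 the value was 0.65 and the adjusted p 0.0958, so this call rests on that library. In KO tissue the log2 fold change with cold was 0.18 ± 0.17 (adjusted p = 0.503), with ranges that overlapped. The difference between the cold responses was -0.73 ± 0.26 (unadjusted p = 0.0125, adjusted p = 0.457) and did not pass. Counts of Abhd5 were 222 to 514 per library. The antisense gene A730085K08Rik overlaps Abhd5 and averaged 0.0 CPM.

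G0s2 (ENSMUSG00000009633.4, chromosome 1) encodes an inhibitor of ATGL and varied widely within every group. It was at 662, 573, 553 and 267 CPM in KO cold, against 472, 306, 532 and 390.4 CPM in control cold, and at 281, 433 and 673 CPM in KO RT and 320.0 and 587 CPM in control RT. All 4 ranges overlapped. Group means were 514 ± 171 CPM in KO cold, against 425 ± 98.2 CPM in control cold (SD, n = 4 each). At RT they were 462 ± 198 CPM in KO (n = 3), against 454 ± 189 CPM in control (n = 2). None of the comparisons passed, and the log2 fold change of KO cold against control cold was 0.27 ± 0.28 (adjusted p = 0.647). That standard error was the largest of the 10 genes in this comparison. Lamb3, on the opposite strand, overlaps G0s2 and averaged 15.3 CPM.

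Hilpda (ENSMUSG00000043421.9, chromosome 6), which encodes an inhibitor of ATGL induced by low oxygen, was at 60.0, 48.5, 48.9 and 50.2 CPM in KO cold, against 61.1, 49.4, 34.7 and 63.5 CPM in control cold. It was at 41.5, 39.6 and 35.7 CPM in KO RT and 40.5 and 37.4 CPM in control RT. Genotypes overlapped at both temperatures, with a log2 fold change of -0.01 ± 0.17 in cold (adjusted p = 0.987). All 4 KO cold libraries were above all KO RT libraries, yet the change of 0.41 ± 0.18 did not pass (adjusted p = 0.124, and 0.0498 in a fit of only these groups). In control, the change with cold was 0.42 ± 0.21 (adjusted p = 0.153, and 0.0234 without control cold 3, the lowest library). It rested on 56 to 106 counts per library, the fewest of the 10 genes.

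Plin1 (ENSMUSG00000030546.15, chromosome 7) encodes the perilipin that holds ABHD5 until protein kinase A releases it. It was at 1479, 1399, 1368 and 1445 CPM in KO cold, against 1226, 1231, 1264 and 1139 CPM in control cold, and each KO cold library was above each control cold library. The log2 fold change was small, 0.23 ± 0.08, and did not pass (adjusted p = 0.108, against 0.0361 with DESeq2). Scaled by library totals alone it passed (0.32, adjusted p = 0.0225), a scaling that shifts the median of all genes by 0.10 in the same direction. KO RT libraries had 1387, 1304 and 1265 CPM and control RT libraries 1307 and 1383 CPM, which overlapped. All control cold libraries were below both control RT libraries, a change of -0.15 ± 0.10 that did not pass (adjusted p = 0.292) except with library totals (-0.36, adjusted p = 0.0117), where the median of all genes shifts by -0.21.

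Plin2 (ENSMUSG00000028494.13, chromosome 4), a perilipin found on droplets of most cells and stabilised by lipid, showed the largest response to cold of the 10 genes in both genotypes. It was at 1695, 1357, 1331 and 1094 CPM in KO cold, against 2337, 1384, 1212 and 2484 CPM in control cold, and at 520.2, 663 and 678 CPM in KO RT and 555 and 717 CPM in control RT. Every cold library was above every RT library. KO cold was 2.21-fold higher than KO RT (1.14 ± 0.23, adjusted p = 0.00218) and control cold 2.92-fold higher than control RT (1.54 ± 0.27, adjusted p = 0.000668), and both calls held with any 1 library left out. Cold levels overlapped between genotypes (-0.44 ± 0.20, adjusted p = 0.234, but 0.00751 with no filter on low counts). The responses differed by -0.40 ± 0.33 (adjusted p = 0.818).

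Plin4 (ENSMUSG00000002831.15, chromosome 17), a perilipin of fat cells and muscle, was at 931, 789, 853 and 872 CPM in KO cold, against 889, 614, 549 and 1047 CPM in control cold. KO RT libraries had 568, 638 and 458 CPM and control RT libraries 446 and 627 CPM. Each KO cold library was above each KO RT library, a 1.55-fold rise (0.64 ± 0.19, adjusted p = 0.0296) that was lost without KO cold 1, KO cold 3, KO RT 1 or KO RT 3, at adjusted p of 0.0700, 0.0569, 0.0814 and 0.12, with library totals (0.52, adjusted p = 0.068) and with the replicate number as a block (0.57, adjusted p = 0.0529). Control cold and control RT overlapped, and the change of 0.53 ± 0.22 did not pass (adjusted p = 0.0895), though it did without control cold 3 (0.0262), without control RT 2 (0.0498) and with no filter on low counts (0.00406). Genotypes overlapped at both temperatures. Hdgfl2, on the opposite strand, overlaps Plin4 and averaged 16.3 CPM.

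Plin5 (ENSMUSG00000011305.12, chromosome 17) encodes the perilipin that tethers droplets to mitochondria in tissues that burn fat. It was at 269, 290.1, 319 and 259 CPM in KO cold, against 191, 244, 209 and 183 CPM in control cold, and at 155, 181 and 162 CPM in KO RT and 170.1 and 159.7 CPM in control RT. Each KO cold library was above each control cold library, and each cold library of either genotype above each RT library. The KO cold level was 1.37-fold higher than control cold (0.46 ± 0.11, adjusted p = 0.0241), but the adjusted p was 0.0606 without KO cold 2, 0.0837 without KO cold 3, 0.0632 without control cold 1 and 0.0596 without control cold 4. KO cold was 1.71-fold higher than KO RT (0.78 ± 0.12, adjusted p = 0.000434), while the change with cold in control was 0.33 ± 0.14 and did not pass (adjusted p = 0.102). The responses differed by 0.45 ± 0.19 (unadjusted p = 0.0267, adjusted p = 0.531). The first of the 2 promoter windows of Plin5 carries AGGTCA and the second does not, where 14.0% of all windows held it. A link of this motif to the change with cold was not tested.

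**Figure D3:**
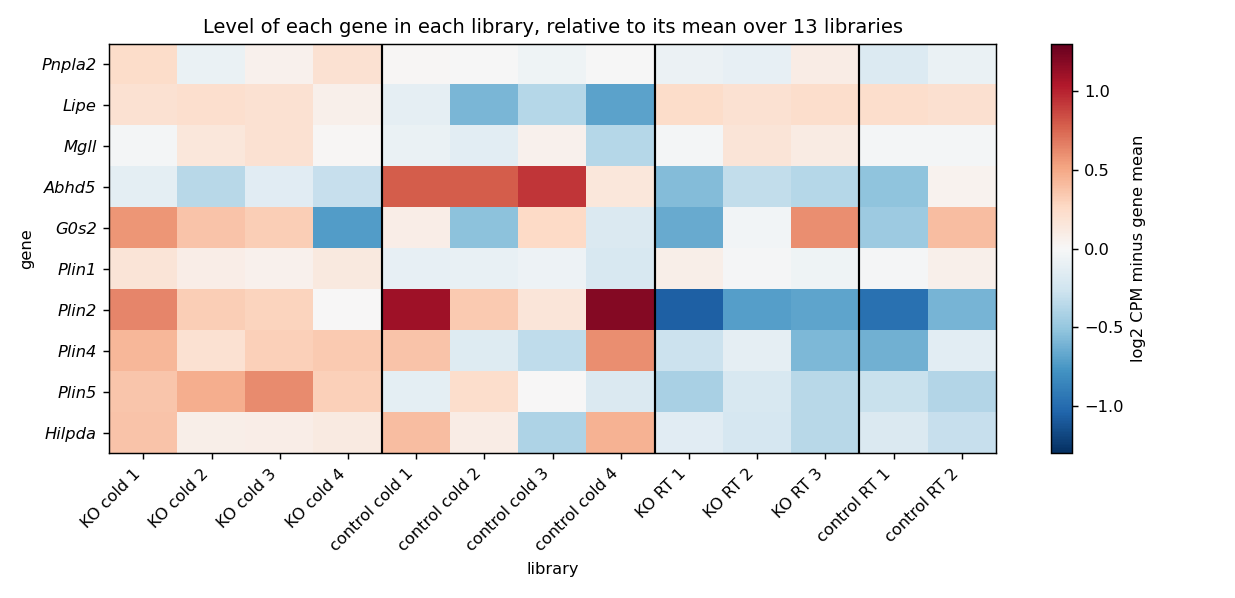
Level of each of the 10 genes in each library as log2 CPM minus the mean of that gene over the 13 libraries, 1 row per gene and 1 column per library, grouped as KO cold, control cold, KO RT and control RT. Plin2 is higher in each of the 8 cold libraries than in any RT library, and the 4 control cold libraries have the highest Abhd5 and the lowest Lipe of all 13.

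The 10 genes did not all vary together among the control cold libraries. Control cold 1 and 4 were the higher libraries for Plin2, Plin4 and Hilpda (2337 and 2484 CPM, 889 and 1047 CPM, and 61.1 and 63.5 CPM), and control cold 2 and 3 were lower (1384 and 1212 CPM, 614 and 549 CPM, and 49.4 and 34.7 CPM). Plin5 had the opposite order, with 191 and 183 CPM in control cold 1 and 4 and 244 and 209 CPM in control cold 2 and 3. Control cold 4 had the lowest level of its group for Abhd5, Lipe, Mgll, Plin1 and Plin5. Among KO cold libraries the spread was smaller for 8 of the 10 genes, as for Plin2 (1369 ± 247 CPM in KO cold, against 1854 ± 649 CPM in control cold, SD, n = 4 each) and Lipe (549 ± 26.4 CPM in KO cold, against 362 ± 65.7 CPM in control cold), but larger for Pnpla2 (1244 ± 124 CPM in KO cold, against 1142 ± 24.2 CPM in control cold) and G0s2. The spreads themselves were not compared by a test.

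Ratios between genes of the same library do not depend on the scaling between libraries, and 4 were formed from roles: ATGL over its inhibitor G0S2, ATGL over its coactivator ABHD5, and ABHD5 over each perilipin that binds it. Tags of different genes need not be recovered equally, so differences between groups are read here and not the size of a ratio. The log2 ratio of Abhd5 to Plin1 was -3.28, -3.43, -3.19 and -3.42 in KO cold and -2.09, -2.10, -1.99 and -2.63 in control cold. It was -3.62, -3.29 and -3.30 in KO RT and -3.50 and -3.01 in control RT. The KO cold values lay within the range of the RT libraries and the control cold values all lay above it.

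The mean log2 ratio of Abhd5 to Plin1 was -3.33 ± 0.12 in KO cold and -2.20 ± 0.29 in control cold (SD, n = 4 each), a difference of -1.13. Abhd5 to Plin5 was at -1.004 ± 0.15 in KO cold and 0.36 ± 0.29 in control cold, a difference of -1.37. Pnpla2 to Abhd5 was at 3.13 ± 0.13 in KO cold and 2.11 ± 0.36 in control cold, a difference of 1.02. None of these 3 ratios overlapped between the cold groups, and each had p = 0.0286 in a two-sided exact permutation test, the smallest p that 4 against 4 libraries can give, and 0.0381 after Benjamini-Hochberg adjustment over the 4 ratios. Pnpla2 to G0s2 was at 1.35 ± 0.65 in KO cold and 1.46 ± 0.36 in control cold, which overlapped (exact permutation p = 0.771). Abhd5 enters all 3 ratios that differed, so they are not separate observations.

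At RT the same ratios were closer between genotypes. Pnpla2 to Abhd5 averaged 3.18 in KO RT and 2.90 in control RT, Abhd5 to Plin1 averaged -3.40 in KO RT and -3.25 in control RT, and Abhd5 to Plin5 -0.41 in KO RT and -0.23 in control RT, each with ranges that overlapped. Between cold and RT, the mean of Abhd5 to Plin1 differed by 0.07 in KO and by 1.05 in control, and that of Pnpla2 to Abhd5 by -0.05 in KO and by -0.79 in control. Abhd5 to Plin5 differed by -0.59 in KO, where all cold libraries were below all RT libraries, and by 0.59 in control, where they overlapped. These comparisons have too few libraries for a permutation test to pass 0.05, since the smallest p is 0.0571 for 4 against 3, 0.133 for 4 against 2 and 0.2 for 3 against 2 libraries.

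**Figure D4:**
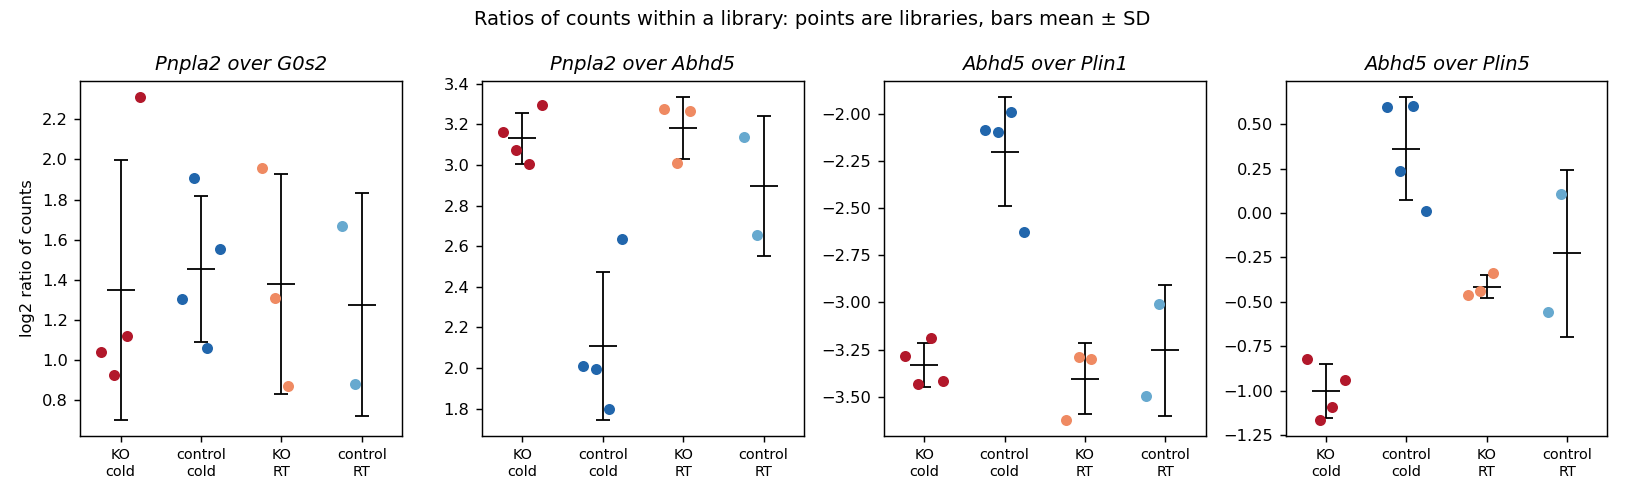
Log2 ratio of counts of 2 genes within each library (vertical axis), 1 panel per ratio, with 1 point per library and the group mean and SD as bars, in the order KO cold, control cold, KO RT, control RT. For the 3 ratios with Abhd5 the control cold points stand apart from the KO cold points, and for Pnpla2 over G0s2 all groups overlap.

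The genes with the pattern most like that of Abhd5 over the 13 libraries, by the mean absolute difference of centred log2 CPM among 10138 genes, were Cyrib (0.16) and Rbsn (0.17), where the own mean deviation of Abhd5 was 0.42. For Plin2 they were Cpeb4 (0.15) and Cdc27 (0.16), where its own deviation was 0.62.

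Genes around this machinery were read from 8 further lists, whose counts for KO cold against control cold stand beside the 5.93% of all genes tested that differed (2.44% higher, 3.49% lower). In cold, none of the 14 tested genes for other lipases and acylglycerol hydrolases and none of the 14 for other droplet proteins passed between KO and control. The nearest were Lpl, the lipase that releases fatty acids from lipoproteins, and Lipa, the acid lipase of lysosomes. Lpl was at 9324 ± 343 CPM in KO and 11473 ± 646 CPM in control (-0.30 ± 0.09, adjusted p = 0.0507, and 0.0188 with DESeq2). Lipa had a log2 fold change of 0.54 ± 0.16 (adjusted p = 0.0588, and 0.0444 with DESeq2). Cideb and Bscl2 came nearest among the droplet genes (1.29 ± 0.44 and 0.30 ± 0.11, adjusted p = 0.0984 and 0.116). Cideb passed without KO cold 4 (adjusted p = 0.035) and with no filter on low counts (0.000707), and Bscl2 with library totals (0.0415).

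On the input side, 3 of 18 genes for adrenergic and cAMP signals changed, all of them regulatory subunits of protein kinase A. Prkar2b was at 1976 ± 191 CPM in KO cold, against 1364 ± 160 CPM in control cold, and was higher (0.53 ± 0.11, adjusted p = 0.00799). Prkar2a was at 77.8 ± 4.75 CPM in KO cold, against 123 ± 11.6 CPM in control cold, and was lower (-0.65 ± 0.12, adjusted p = 0.00353). Prkar1a was also lower (-0.37 ± 0.10, adjusted p = 0.0487), a call lost without any 1 of 11 libraries, at adjusted p up to 0.133, and with library totals, no filter, the replicate block or a fit of only these groups (adjusted p = 0.0625 to 0.108). Of 21 genes that restrain lipolysis, 2 were lower in KO cold. Npr3, which clears natriuretic peptides, was at 34.7 ± 8.52 CPM in KO cold, against 205 ± 107 CPM in control cold (-2.55 ± 0.32, adjusted p = 0.00014), and Prkaa1, a catalytic subunit of AMP kinase, was at 40.6 ± 3.69 CPM in KO cold, against 62.0 ± 7.18 CPM in control cold (-0.61 ± 0.13, adjusted p = 0.0122).

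Among 15 genes for the fate of released lipid, 2 were higher and 2 lower in KO cold. Gpam, which starts the return of fatty acids to glycerolipid, was at 471 ± 65.3 CPM in KO cold, against 993 ± 74.4 CPM in control cold (-1.08 ± 0.11, adjusted p = 3.43e-05), and Gk, which phosphorylates glycerol, was lower as well (-0.76 ± 0.18, adjusted p = 0.0214). The fatty acid transporter Slc27a1 (1.09 ± 0.24, adjusted p = 0.0144) and Angptl4, an inhibitor of lipoprotein lipase (0.89 ± 0.20, adjusted p = 0.017), were higher. The call of Gk was lost without any 1 of 5 libraries (KO cold 1 to 4 or control cold 2, adjusted p up to 0.0624) and that of Angptl4 without KO cold 4 or control cold 2 (adjusted p up to 0.0542).

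Of 19 transcription factors known to act on lipolysis genes, Ppara, the fatty acid receptor of oxidative tissues, was the one called. It was at 248 ± 60.1 CPM in KO cold, against 142 ± 34.95 CPM in control cold (0.81 ± 0.18, adjusted p = 0.0145, but 0.0523 without KO cold 2). Of 21 PPAR targets outside the 10 genes, 3 were higher and 1 lower in KO cold. Those higher included the mitochondrial carrier Ucp3 (139 ± 25.8 CPM in KO cold, against 69.1 ± 8.70 CPM in control cold, adjusted p = 0.00103) and Angptl4, and the lower one was Gk. Of 16 hypoxia targets other than Hilpda, P4ha1, a collagen prolyl hydroxylase, was lower (-0.97 ± 0.23, adjusted p = 0.0205, but up to 0.0655 without KO cold 1, 2 or 3 or control cold 3). At RT no gene of any list passed between the genotypes, and none passed for the difference of the cold responses.

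With cold, 18.9% of all genes tested changed in KO (9.43% higher, 9.45% lower) and 25.2% in control (12.7% higher, 12.6% lower), the background for the counts of each list. Of the 14 other lipases, 3 were higher and 3 lower in KO, and 4 higher and 5 lower in control. Lpl was higher with cold in KO (0.59 ± 0.09, adjusted p = 0.000422) and in control (1.11 ± 0.11, adjusted p = 7.17e-06). Ddhd1 was lower in KO (-1.18 ± 0.19, adjusted p = 0.000499) and in control (-1.46 ± 0.22, adjusted p = 0.000257). Of the 14 droplet genes, 3 were higher and 2 lower in KO, and 3 higher and 3 lower in control. Dgat2, which makes triglyceride, was lower in KO (-1.66 ± 0.33, adjusted p = 0.00225) and in control (-1.98 ± 0.36, adjusted p = 0.00107), while Fitm2, which helps droplets form, was higher in KO (0.98 ± 0.14, adjusted p = 0.000192) and in control (0.85 ± 0.16, adjusted p = 0.0013, but 0.0504 without control RT 1).

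The adrenergic and cAMP list had 4 genes higher and 3 lower with cold in KO, and 3 higher and 5 lower in control. Adcy3, an adenylyl cyclase, was higher in KO (1.85 ± 0.16, adjusted p = 2.67e-06) and in control (2.16 ± 0.19, adjusted p = 3.93e-06). Akap1 was lower in KO (-1.46 ± 0.17, adjusted p = 4.08e-05) and in control (-1.31 ± 0.19, adjusted p = 0.000179). Among the genes that restrain lipolysis 4 were higher and 6 lower in KO, and 6 higher and 4 lower in control. The prostaglandin receptor gene Ptger3 fell in KO (-2.66 ± 0.29, adjusted p = 1.91e-05) and in control (-2.64 ± 0.30, adjusted p = 2.79e-05), and so did the adenosine receptor gene Adora1 (-1.62 ± 0.21 in KO, adjusted p = 7.71e-05, and -1.83 ± 0.23 in control, adjusted p = 4.75e-05). Pde4d of the same list rose in KO (1.47 ± 0.22, adjusted p = 0.000265) and in control (1.49 ± 0.26, adjusted p = 0.000647).

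Fate of released lipid counted 5 genes higher and 0 lower with cold in KO, and 5 higher and 1 lower in control. Gk rose in KO (2.20 ± 0.21, adjusted p = 6.3e-06) and in control (2.06 ± 0.25, adjusted p = 3.82e-05). Gpam rose in control (1.104 ± 0.14, adjusted p = 7.35e-05), and was at 471 ± 65.3 CPM in KO cold, against 366 ± 20.7 CPM in KO RT. The test of Gpam with cold in KO is not given here. Its cold responses differed between KO and control by -0.74 ± 0.19 (adjusted p = 0.255), which did not pass. Transcription factors counted 3 higher and 4 lower in KO, and 3 higher and 5 lower in control, led by a fall of Srebf1, a lipogenic factor, in KO (-2.24 ± 0.25, adjusted p = 2.37e-05) and in control (-2.38 ± 0.28, adjusted p = 3.59e-05). PPAR targets counted 11 higher and 0 lower in KO, with a median log2 fold change of 0.50, and 8 higher and 1 lower in control, with a median of 0.16, where the medians of all genes tested were -0.01 and -0.02. Taken gene by gene, the difference between the cold responses of KO and control had a median of 0.13 over these targets, and none passed. Hypoxia targets counted 5 higher and 1 lower in KO, and 5 higher and 0 lower in control, and Ddit4 was higher in KO (3.03 ± 0.45, adjusted p = 0.000262) and in control (2.30 ± 0.54, adjusted p = 0.00542, but 0.0969 without control RT 1). Some calls behind the counts in control were lost without control RT 1, among them Fabp3, Ehhadh and Acot1 of the PPAR targets. So were P4ha1, Slc2a1 and Adm of the hypoxia targets. None of these lists was tested as a set.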

How the data were processed

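RNA of brown adipose tissue was measured in 13 libraries. Per the labels' protocols they were made with QuantSeq, a kit that sequences 1 tag from the 3′ end of a transcript. The values the authors deposited are raw whole-number counts per Ensembl gene with no scaling, in a table named for Ensembl release 103. The submitters' processing notes name the build GRCm39 and the tools STAR 2.7.10b, HTSeq 0.12.3, UMI-tools 1.1.2, Trim Galore 0.6.7, limma and edgeR, with no roles. The sources used here give neither the use of strand in counting nor any collapsing of reads by molecular identifier, so a gene cannot be told from a partner that overlaps it.

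Of 55632 lines, 275 repeated an identifier and were dropped. Totals were 1570684 to 2016178 counts (median 1800685). The counts were fitted in R 4.3.3 with edgeR 4.0.16 (TMM scaling, filterByExpr with a minimum count of 10, quasi-likelihood test, two-sided, 1 coefficient per group, all 13 libraries in 1 fit). Adjusted p-values are Benjamini-Hochberg over the 11073 genes tested, with a threshold of 0.05. CPM use TMM-scaled totals, and the standard error is the absolute log2 fold change divided by the square root of F. The common biological coefficient of variation was 16.1%. Ratios used log2 of counts plus 0.5 and the exact permutation test of scipy 1.17.1. The fit was also run on simulated data in which every gene had the same spread between libraries, and no call given here rests on that run.

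The members and lists were chosen with earlier results of these data known. All 10 members are named whatever their values; from each other list, up to 4 genes past the threshold with the smallest p could be named, or up to 2 where none passed. The genes of likest pattern were named for the called member with the largest change between genotypes in cold and with cold in control. The symbols Aup1, Ldaf1 and Hcar1 matched no row and were not analysed here. A gene that the naming rule picked is not reported here. Overlapping genes and promoters come from reference tables of GENCODE M21 and GRCm38.p6, a build other than that of the counts, used for names and for the promoter sequences only. Alternatives were other scalings, DESeq2 1.42.0, no filter, a replicate block, a fit of only the groups compared, and leaving out each library.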

Additional observations from a re-analysis of the deposited data

Results flagged for a closer look

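In groups of 4 libraries, 4 of the 28 values checked had 1 library whose gap to its nearest neighbour took more of the range of the group than Dixon's critical share, and chance does this in about 1 of 20 groups. In KO cold, Lipe was lowest in KO cold 4, at 509.6 CPM, still above each control cold library. In KO cold, Hilpda was highest in KO cold 1, at 60.0 CPM. The log2 ratio of Pnpla2 to G0s2 was highest in KO cold 4, at 2.31, where G0s2 was at 267 CPM against 553 to 662 CPM in the other KO cold libraries. The log2 ratio of Abhd5 to Plin1 was lowest among control cold libraries in control cold 4, at -2.63, still above each KO cold library.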

How the results depend on the processing

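The calls of Lipe and Abhd5 between KO cold and control cold, of Lipe and Plin2 with cold in control, and of Plin2 and Plin5 with cold in KO held under each alternative fit and with any 1 library left out. The calls of the 10 genes that did not are given beside their values in the report. For the other lists this is given only for some of the genes named. List counts with cold in control include calls lost without control RT 1, among them Mettl7a1, Dgat1, Fabp3, Ehhadh, Acot1, P4ha1, Slc2a1 and Adm. Of the 10 genes, 2 or 3 were called between KO cold and control cold with 1 library left out, 0 between KO RT and control RT, 2 to 5 with cold in control (5 without control cold 3), 2 or 3 with cold in KO and 0 for the difference of the cold responses.

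Over all genes, leaving out 1 library gave 392 to 716 calls between KO cold and control cold, against 657 with all libraries. The count was 425, 417, 400.0 and 392 without KO cold 1, 2, 3 and 4. It gave 0 to 3 calls between KO RT and control RT (3 without control RT 1), 1067 to 2821 with cold in control (1067 without control RT 1, against 2793), 1219 to 2271 with cold in KO (1219 without KO RT 1, against 2090.0) and 0 to 4 for the difference of the cold responses, against 2. Other settings that moved a count by over 1.5 times were DESeq2 and no filter between KO RT and control RT (8 and 50 calls, against 0), DESeq2, no filter and the replicate block for the difference of the cold responses (31, 133 and 0 calls, against 2), and the fit of only the groups compared for control cold against control RT (1685). Library totals turned 270.0 higher and 387 lower calls between KO cold and control cold into 472 and 264, 1401 and 1392 with cold in control into 789 and 2335, and 1044 and 1046 with cold in KO into 750.0 and 1455. That scaling shifts the median of all genes by 0.10, -0.21 and -0.11.

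Replicate numbers are shared between groups. Over 16 pairs of libraries with the same number, the correlation of deviations from the group means ran from -0.23 to 0.33. It was over 0.1 in 3 of these pairs. Deviations within a small group are tied to each other through its mean, so these values cannot tell whether the numbers pair the libraries. A replicate block gave 564, 0, 2122 and 1629 calls for KO cold against control cold, KO RT against control RT, cold in control and cold in KO, and 0 for the difference of the cold responses. It moved the call of Plin4 with cold in KO to an adjusted p of 0.0529. For the ratios, an exact sign-flip permutation test within numbered pairs cannot go below p = 0.125, and its adjusted p was 0.167 for Pnpla2 to Abhd5 (1.02), Abhd5 to Plin1 (-1.13) and Abhd5 to Plin5 (-1.37). With 1 library left out the ratio differences were -0.43 to 0.044 for Pnpla2 to G0s2, 0.92 to 1.197 for Pnpla2 to Abhd5, -1.27 to -1.06 for Abhd5 to Plin1 and -1.48 to -1.29 for Abhd5 to Plin5, where 4 against 3 libraries cannot pass.

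Some log2 fold changes near 0 changed sign, none of them called. For Lipe between KO RT and control RT the value was -0.0054 with relative log expression scaling, -0.0015 with library totals, -0.0050 with DESeq2 and -0.0015 in the fit of only the groups compared. For Mgll with cold in KO it was 0.0026 with relative log expression scaling, 0.0105 with DESeq2, 0.0197 with no filter and 0.0474 with the replicate block. For Hilpda between KO cold and control cold it was 0.0882 with library totals, 0.0124 with the replicate block and 0.0065 in the fit of only the groups compared, and between KO RT and control RT 0.0027 with no filter and 0.1048 with the block. Library totals gave -0.0900 for Pnpla2 with cold in control, -0.0037 for Plin1 with cold in KO and 0.0929 for Hilpda in the difference of the cold responses. The block gave -0.1396 for G0s2, 0.0311 for Plin2 and -0.0108 for Plin5 between KO RT and control RT, and 0.0082 for Lipe with cold in KO.

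Leaving out 1 library also turned signs of values that were not called. Between KO RT and control RT the ranges were -0.011 to 0.0074 for Lipe, -0.47 to 0.12 for Abhd5, -0.35 to 0.54 for G0s2, -0.076 to 0.019 for Plin1, -0.22 to 0.17 for Plin2, -0.19 to 0.32 for Plin4, -0.062 to 0.052 for Plin5 and -0.0545 to 0.052 for Hilpda. For KO cold against control cold the range was -0.16 to 0.10 for Hilpda. With cold in control it was -0.47 to 0.42 for G0s2, and with cold in KO -0.0535 to 0.0446 for Mgll and -0.11 to 0.53 for G0s2. In the difference of the cold responses it was -0.0295 to 0.093 for Pnpla2, -0.25 to 0.63 for G0s2, -0.16 to 0.35 for Plin4 and -0.16 to 0.10 for Hilpda. Where 1 control RT library was left out, the other was assumed to vary like the remaining groups. The causes were not tested. Control RT has 2 libraries, the fewest of the groups, and Hilpda the fewest counts of the 10 genes.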
